A study of Mus musculus with 6 samples.

Results

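The comparison set 3 libraries of cells given CSF3R constructs with the membrane-proximal mutation T618I against 3 libraries without it, which together are all 6 libraries of the series. CSF3R is the receptor of granulocyte colony-stimulating factor (G-CSF). The libraries with T618I carried T618I alone, T618I with the Q741 tail truncation (T618I/Q741) or T618I with the W791 tail truncation (T618I/W791). The libraries without it carried an empty vector, W791 alone or Q741 alone. All cells were Kit-positive bone marrow cells of wild-type C57BL/6 mice, enriched with CD117 beads, cultured with the cytokines IL-3, IL-6, FLT3 and mSCF, transduced with retrovirus on retronectin, sorted by FACS and grown overnight before total RNA was taken. The design text calls T618I alone and the constructs with both changes leukemogenic and the truncations alone non-leukemogenic.

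Each construct was sequenced once. The spread within a group is therefore a spread between constructs, and nothing in the labels ties a library to an animal. No library carried the unmutated receptor, so against vector the introduction of a receptor and its mutation cannot be told apart. Genes entered the comparison if their symbol had not been turned into a date and they reached 1 FPKM (a count of fragments scaled by transcript length and library size) or more in at least 2 libraries, which kept 11188 genes of 23417 with a symbol.

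CSF3R acts in the granulocytic lineage and has no kinase domain of its own. Ligand binding brings receptor chains together and activates Janus kinases, STAT factors and the RAS-ERK pathway, which drive proliferation and neutrophil maturation. T618I, a mutation known from chronic neutrophilic leukemia, makes the receptor signal without ligand, while tail truncations remove motifs that recruit inhibitors and promote internalization. During maturation neutrophils make their granule proteins in waves, from primary over specific to gelatinase granules.

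Markers of the labelled cells were present. Kit, the receptor used for enrichment, was at 32.6, 15.1 and 12.6 FPKM in the T618I, T618I/Q741 and T618I/W791 libraries, against 34.5, 30.1 and 23.3 FPKM in the vector, W791 and Q741 libraries. Myb, a transcription factor of progenitors, was between 32.1 and 52.6 FPKM in the 6 libraries. The B cell markers Cd79a, Ms4a1 and Pax5 and the T and NK cell markers Cd3e, Cd3d, Lck and Ncr1 were all under 1 FPKM in every library. Total FPKM per library ran from 439505 to 492025. From the smallest steps of the values, depth was estimated at 20 to 26.4 M fragments (M, mega), and at 40.3 M for vector, whose low values are thus the most precise.

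With T618I, 75 genes rose and 22 fell at an adjusted p below 0.05 (limma, Benjamini-Hochberg adjusted over all 11188 genes), which is 0.67% and 0.197% of the genes tested, and 0.867% for both directions. At an unadjusted p below 0.05, 680 genes were higher (6.08%) and 1096 lower (9.8%). The rise was largest in the stefin A protease inhibitors, followed by globins, endothelial lipase, resistin-like gamma and other secreted proteins of neutrophils. The 22 genes that fell included the insulin-like growth factor binder Igfbp7, the survival gene Bcl2, and the cytokine genes Il4 and Hgf, and their changes were smaller. In 22 of the higher genes the log2 difference was above 3, and in 3 of the lower genes it was below -2. Differences are means of log2(FPKM + 1), a scale on which low genes appear to change less than they do.

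The count of genes depended on which library was left out. Without vector 20 genes were higher and 2 lower, without W791 22 and 2, and without Q741 21 and 2. Without T618I/Q741 121 genes were higher and 31 lower, without T618I/W791 119 and 33, and without T618I 78 and 63. There were 21 genes that passed in the full comparison and with each library left out in turn. They were the 9 stefin A genes, S100a8, S100a9, Lipg, Asprv1, Il1bos, Slfn4, Ankrd22, Mt2, Il1f9, Dgat2, Igfbp7 and Snord15b.

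The groups did not overlap for 899 genes that were higher with T618I (8.04%) and for 2034 that were lower (18.2%), so a gap between the groups alone was common. Of the genes with such a gap 30.7% were higher as deposited and 49.9% after median-ratio scaling, so the balance of this wider set depended on scaling. The median log2 difference of all genes tested was -0.08 as deposited and -0.0013 after that scaling. All 97 called genes kept their direction under it, which their selection favours, since the groups did not overlap for any of them as deposited.

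**Figure D1:**
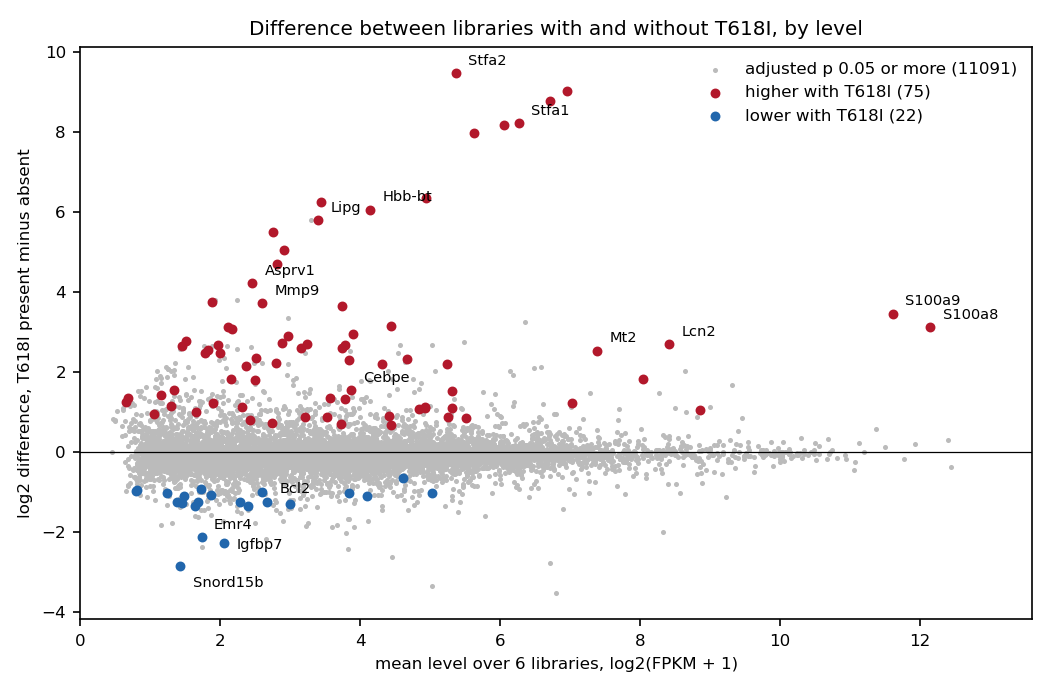
Log2 difference between libraries with and without T618I (vertical axis) against the mean level over the 6 libraries (horizontal axis, log2(FPKM + 1)); each point is 1 of 11188 genes. The 75 genes higher with T618I reach differences of 9.47, while the 22 lower genes end at -2.85 and lie at low to middle levels.

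The 75 higher genes took up 6.15%, 9.56% and 8.59% of all FPKM in the T618I, T618I/Q741 and T618I/W791 libraries, against 0.655%, 0.929% and 0.841% in the vector, W791 and Q741 libraries. Most of this was S100a8 and S100a9, the calprotectin subunits, and the stefin A genes. The 64 other higher genes took up 0.774%, 1.02% and 1.02% in the T618I, T618I/Q741 and T618I/W791 libraries, against 0.206%, 0.280% and 0.250% in the vector, W791 and Q741 libraries. The 22 lower genes together stayed between 0.0161% and 0.0486% in every library.

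Within each tail, T618I could be set against the construct that differs from it by this change alone, or, for T618I alone, against vector. These 3 pairs share no library. Over all genes, 116 (1.04%) were higher by 2-fold or more in all 3 pairs and 38 (0.34%) were lower, and 55 and 9 of these were among the called genes. T618I minus vector gave 305 genes higher by 2-fold or more (2.73%) and 142 lower (1.27%). T618I/Q741 minus Q741 gave 530 higher (4.74%) and 211 lower (1.89%), and T618I/W791 minus W791 gave 262 higher (2.34%) and 477 lower (4.26%). These pair counts have no replicate check.

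The pairs did not contribute alike to the genes that rose. Of the 75 higher genes, 42 had their largest pair difference with the Q741 tail, 17 with the W791 tail and 16 with T618I against vector. Over all genes the Q741 pair also had the most rises of 2-fold or more, 530, against 262 with the W791 tail and 305 for T618I against vector. Each pair is 1 library against 1, and the split by largest pair was not counted over all genes. Of the 22 lower genes, 12 were lowest with the Q741 tail, 4 with W791 and 6 against vector. By the spread of the 3 pair differences on the log2(FPKM + 1) scale, the lower genes held several of the most even responses. Low levels and small differences narrow this spread, so the order does not compare relative changes. Il4 differed by -1.28, -1.26 and -1.25 in the pairs of T618I, T618I/Q741 and T618I/W791, and the translation inhibitor gene Pdcd4 by -0.63, -0.64 and -0.69. Lin28a, an RNA-binding protein that blocks let-7 maturation, was the most even gene to rise on this scale, with 1.41, 1.44 and 1.40. Its levels were low, at 0.196, 0.372 and 0.522 FPKM in the vector, W791 and Q741 libraries. Osbpl3 and B3gnt5 followed among those that fell. The least even were Hbb-b1 (5.42, 4.61 and 8.72), Retnlg (4.35, 6.62 and 3.09), Stfa2, Hbb-bt and Hba-a2.

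**Figure D2:**
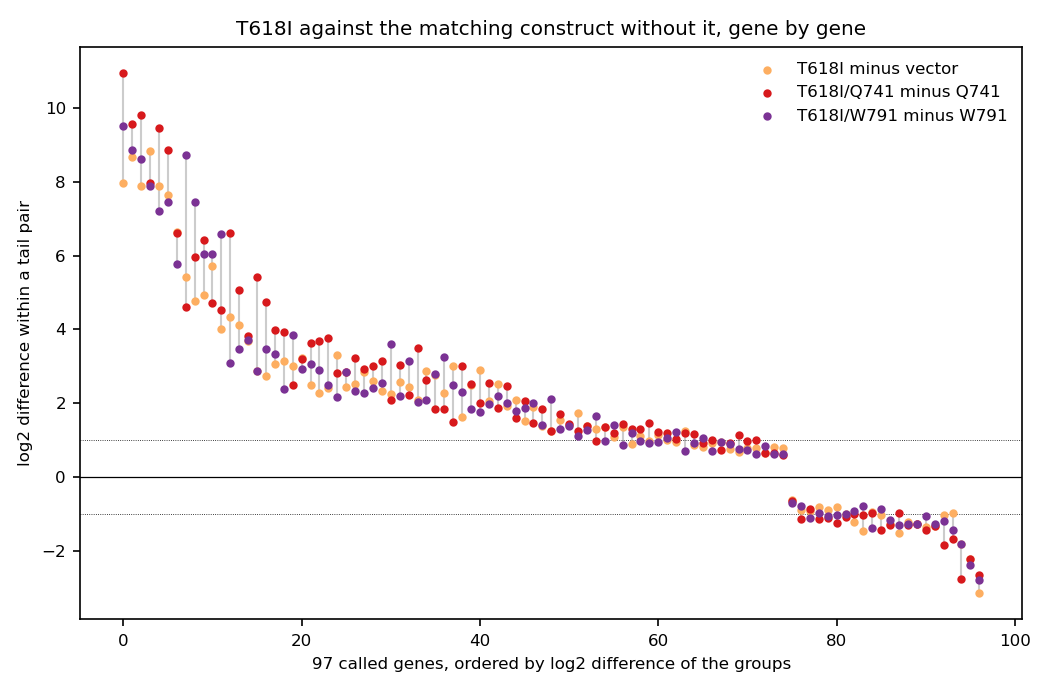
Log2 difference of T618I against vector, T618I/Q741 against Q741 and T618I/W791 against W791 (3 points per gene, joined by a grey line) for the 97 called genes in order of their group difference. All 3 points lie on the same side of 0 for each of the 97 genes, a direction that the choice of called genes favours, and the spread is widest among the genes with the largest differences.

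The stefin A genes encode small inhibitors of cysteine proteases in a tandem cluster. The 7 members that RefSeq places on GRCm38.p6 lie on chromosome 16 between 36156811 and 36455392. All 9 members tested rose, by log2 differences of 3.75 to 9.47 with a median of 8.18, and each was 2-fold or more higher in every pair. Stfa2 was at 601, 1960 and 1115 FPKM in the T618I, T618I/Q741 and T618I/W791 libraries, against 1.39 and 0.538 FPKM in the vector and W791 libraries, and in the Q741 library it was listed at 0. Gm5416 (Csta3 in RefSeq) was at 51.8, 25.4 and 65.1 FPKM in the T618I, T618I/Q741 and T618I/W791 libraries. In all 3 libraries without T618I it was listed at 0, as was BC117090, which stood at 11.9, 13.2 and 12.2 FPKM in the T618I, T618I/Q741 and T618I/W791 libraries. These genes thus stood near 0 without T618I. Stfa1 was at 1553, 1026 and 1469 FPKM in the T618I, T618I/Q741 and T618I/W791 libraries, against 2.44, 5.27 and 3.10 FPKM in the vector, W791 and Q741 libraries. Stfa2l1 was at 812, 1832 and 963 FPKM in the T618I, T618I/Q741 and T618I/W791 libraries, against 2.43, 5.53 and 1.61 FPKM in the vector, W791 and Q741 libraries. Stfa3 was at 424, 1232 and 928 FPKM in the T618I, T618I/Q741 and T618I/W791 libraries, against 1.12, 4.34 and 1.68 FPKM in the vector, W791 and Q741 libraries. T618I/Q741 was highest for Stfa2, Stfa2l1 and Stfa3 and lowest for Stfa1 and Gm5416, so the copies did not follow one order of constructs. BC100530, the most abundant of them, was at 1873, 3006 and 3990 FPKM in the T618I, T618I/Q741 and T618I/W791 libraries, against 3.64, 7.66 and 2.97 FPKM in the vector, W791 and Q741 libraries. The predicted genes Gm5483 (Cstdc4 in RefSeq) and 2010005H15Rik (Csta2) rose by 8.77 and 6.34 on the log2 scale. The copies share sequence, so how reads divide among them is uncertain.

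The promoters of these copies show how alike they are. The 300 bases from 250 before to 50 after the start of 4 stefin A genes are given below, with those of S100a8, S100a9 and the formyl peptide receptor gene Fpr1 as members of the same response outside the cluster. Sequences are RefSeq's, on GRCm38.p6, 5′ to 3′ on the gene's strand. Capitals mark matches on either strand to the C/EBP-type letters TTNCNNAA, the GATA letters AGATAA or the STAT-type letters TTCNNNGAA.
Stfa1, chr16:36276898-36277197, plus strand: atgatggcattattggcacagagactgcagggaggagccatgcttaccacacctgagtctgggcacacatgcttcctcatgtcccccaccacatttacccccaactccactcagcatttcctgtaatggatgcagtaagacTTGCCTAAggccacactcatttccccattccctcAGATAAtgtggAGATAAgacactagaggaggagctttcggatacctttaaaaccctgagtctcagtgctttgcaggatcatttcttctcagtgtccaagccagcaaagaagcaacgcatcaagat
Stfa2, chr16:36408314-36408613, minus strand: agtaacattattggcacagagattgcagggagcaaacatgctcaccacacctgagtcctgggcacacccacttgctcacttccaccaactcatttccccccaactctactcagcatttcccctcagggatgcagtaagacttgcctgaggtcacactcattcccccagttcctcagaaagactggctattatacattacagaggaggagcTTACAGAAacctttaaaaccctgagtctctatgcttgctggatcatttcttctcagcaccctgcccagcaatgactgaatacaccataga
Stfa2l1, chr16:36156561-36156860, plus strand: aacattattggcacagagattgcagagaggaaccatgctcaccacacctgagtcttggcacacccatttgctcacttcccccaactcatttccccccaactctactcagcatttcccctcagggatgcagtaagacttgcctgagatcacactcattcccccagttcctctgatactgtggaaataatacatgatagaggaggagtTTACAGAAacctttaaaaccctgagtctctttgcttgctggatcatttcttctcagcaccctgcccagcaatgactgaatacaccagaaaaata
Stfa3, chr16:36455343-36455642, minus strand: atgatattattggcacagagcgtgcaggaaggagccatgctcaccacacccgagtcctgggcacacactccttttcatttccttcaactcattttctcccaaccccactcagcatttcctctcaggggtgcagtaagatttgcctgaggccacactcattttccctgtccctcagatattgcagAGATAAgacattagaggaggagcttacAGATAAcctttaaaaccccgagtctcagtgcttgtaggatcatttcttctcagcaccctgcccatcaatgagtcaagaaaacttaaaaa
S100a8, chr3:90668821-90669120, plus strand: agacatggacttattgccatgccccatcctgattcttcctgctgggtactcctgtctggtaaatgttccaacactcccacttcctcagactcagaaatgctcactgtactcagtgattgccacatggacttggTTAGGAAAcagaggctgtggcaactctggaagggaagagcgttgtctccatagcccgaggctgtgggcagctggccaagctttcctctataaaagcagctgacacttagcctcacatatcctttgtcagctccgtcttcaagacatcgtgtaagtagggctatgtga
S100a9, chr3:90695672-90695971, minus strand: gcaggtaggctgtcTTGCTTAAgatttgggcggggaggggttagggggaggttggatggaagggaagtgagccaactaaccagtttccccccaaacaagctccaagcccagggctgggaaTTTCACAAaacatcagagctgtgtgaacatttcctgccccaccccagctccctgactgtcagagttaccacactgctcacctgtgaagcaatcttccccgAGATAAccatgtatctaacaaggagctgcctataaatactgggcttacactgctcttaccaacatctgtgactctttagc
Fpr1, chr17:17883890-17884189, minus strand: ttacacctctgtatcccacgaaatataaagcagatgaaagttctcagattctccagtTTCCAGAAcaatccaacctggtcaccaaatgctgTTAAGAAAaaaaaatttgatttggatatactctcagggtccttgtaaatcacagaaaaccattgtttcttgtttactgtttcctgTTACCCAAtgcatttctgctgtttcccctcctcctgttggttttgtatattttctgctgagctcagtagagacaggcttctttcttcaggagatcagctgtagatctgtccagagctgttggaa

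Stfa2 and Stfa2l1 shared 90.5% of aligned bases, and the other stefin pairs between 78.8% and 81.0%. S100a8 and S100a9, which lie side by side and rose alike, shared 46.0%. That is no more than the 43.1% to 49.4% that stefin windows shared with those of S100a8, S100a9 and Fpr1. A match to the C/EBP-type letters stood in 6 of these 7 windows, and Stfa3 had none. No window shown held the STAT-type letters. Among stefin A windows not shown, that of Cstdc4 held the STAT-type letters and that of Csta2 had no C/EBP-type match. Of all 32851 promoter windows of this length, 40.7% held the C/EBP-type letters, 8.3% the STAT-type letters and 11.2% the GATA letters. Windows of called genes were found for 57 of the higher and 17 of the lower genes. Of the 72 windows of higher genes 55.6%, 11.1% and 12.5% held them, and of the 24 windows of lower genes 45.8%, 16.7% and 16.7%. These are descriptions of letters, and genes with several starts count more than once.

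Granule and secreted proteins made up 13 further higher genes. S100a8 was at 11020, 15815 and 13614 FPKM in the T618I, T618I/Q741 and T618I/W791 libraries, against 1178, 1789 and 1712 FPKM in the vector, W791 and Q741 libraries. S100a9 was at 7240, 13781 and 11171 FPKM in the T618I, T618I/Q741 and T618I/W791 libraries, against 867, 1110 and 873 FPKM in the vector, W791 and Q741 libraries. The groups lay far apart for both, and T618I/Q741 was highest. Chil1, a secreted chitinase-like protein of neutrophils and macrophages, stood at 53.0, 94.4 and 51.7 FPKM in the T618I, T618I/Q741 and T618I/W791 libraries, against 5.10, 9.13 and 5.30 FPKM in the vector, W791 and Q741 libraries (3.15 ± 0.30, SE, adjusted p = 0.00974). Serpinb2, an inhibitor of plasminogen activators, was at 37.8, 66.0 and 68.9 FPKM in the T618I, T618I/Q741 and T618I/W791 libraries, against 11.4, 13.2 and 7.32 FPKM in the vector, W791 and Q741 libraries (2.32 ± 0.29, adjusted p = 0.0277).

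Lcn2, a specific granule protein that binds iron siderophores, was at 628, 1339 and 787 FPKM in the T618I, T618I/Q741 and T618I/W791 libraries, against 109, 155 and 141 FPKM in the vector, W791 and Q741 libraries (2.70 ± 0.29, adjusted p = 0.0172).

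Retnlg and Retn are related genes that both rose, at very different levels. Retnlg, the resistin-like protein of mouse neutrophils, was at 25.3, 107 and 14.7 FPKM in the T618I, T618I/Q741 and T618I/W791 libraries, against 0.294, 0.838 and 0.102 FPKM in the vector, W791 and Q741 libraries (4.69 ± 0.68, adjusted p = 0.0407). Retn, which encodes resistin itself, was at 1.76, 1.58 and 0.991 FPKM in the T618I, T618I/Q741 and T618I/W791 libraries, at 0.0675 FPKM with vector, and listed at 0 with W791 and Q741 (adjusted p = 0.0322). Retnlg thus varied widely among the T618I libraries, with the highest value beside the Q741 tail, while Retn was highest with T618I alone.

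Wfdc21 (1100001G20Rik in the table), a small secreted protein with a WAP inhibitor domain, was among the most abundant genes that rose. It was at 413, 512 and 570.2 FPKM in the T618I, T618I/Q741 and T618I/W791 libraries, against 95.6, 163 and 169 FPKM in the vector, W791 and Q741 libraries (1.83 ± 0.25, adjusted p = 0.0344). Dmkn, which encodes the secreted epithelial protein dermokine, was at 22.2, 31.1 and 46.2 FPKM in the T618I, T618I/Q741 and T618I/W791 libraries, against 3.29, 4.36 and 5.87 FPKM in the vector, W791 and Q741 libraries (2.60 ± 0.29, adjusted p = 0.0188). Asprv1, an aspartic protease known from skin, was at 21.2, 38.7 and 14.1 FPKM in the T618I, T618I/Q741 and T618I/W791 libraries, against 0.272, 0.370 and 0.180 FPKM in the vector, W791 and Q741 libraries (4.22 ± 0.33, adjusted p = 0.00411). Il1f9, which encodes the cytokine IL-36 gamma, averaged 30.8 ± 4.19 FPKM with T618I and 5.49 ± 0.923 FPKM without (SD, n = 3 each, adjusted p = 0.00209). Cela1, a chymotrypsin-like elastase, rose by 0.81 on the log2 scale and Mmp9, the gelatinase of tertiary granules, by 3.72, both close to the threshold (adjusted p = 0.0449 and 0.0494). Of the 6 ways to leave out a library, Wfdc21, Cela1 and Retn passed in 1 and Mmp9 and Retnlg in 2.

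Of the neutrophil markers, S100a8, S100a9 and Cd177 are themselves among the called genes. The 7 markers found in the table (S100a8, S100a9, Camp, Ngp, Ltf, Mmp8 and Cd177) summed to 19135, 34397 and 26203 FPKM in the T618I, T618I/Q741 and T618I/W791 libraries, against 2479, 3597 and 3256 FPKM in the vector, W791 and Q741 libraries. The sum is mostly calprotectin. Camp, a cathelicidin of specific granules, was at 4.25, 60.5 and 12.0 FPKM in the T618I, T618I/Q741 and T618I/W791 libraries, against 9.81, 14.3 and 10.5 FPKM in the vector, W791 and Q741 libraries. Ltf, the specific granule protein lactoferrin, was at 23.3, 320.0 and 95.8 FPKM in the T618I, T618I/Q741 and T618I/W791 libraries, against 24.2, 43.7 and 28.7 FPKM in the vector, W791 and Q741 libraries. The groups overlapped for Camp and Ltf, and did not for Ngp and Mmp8, which were not called, nor for 26.2% of all genes. For Ngp the gap was narrow, with 251 FPKM for T618I alone and 244 FPKM for W791. The T618I/Q741 and T618I/W791 libraries stood at 2988 and 704 FPKM. In bulk libraries a change in the number of cells of a type and a change in RNA per cell cannot be told apart, and the part of cell composition in the results was not tested.

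**Figure D3:**
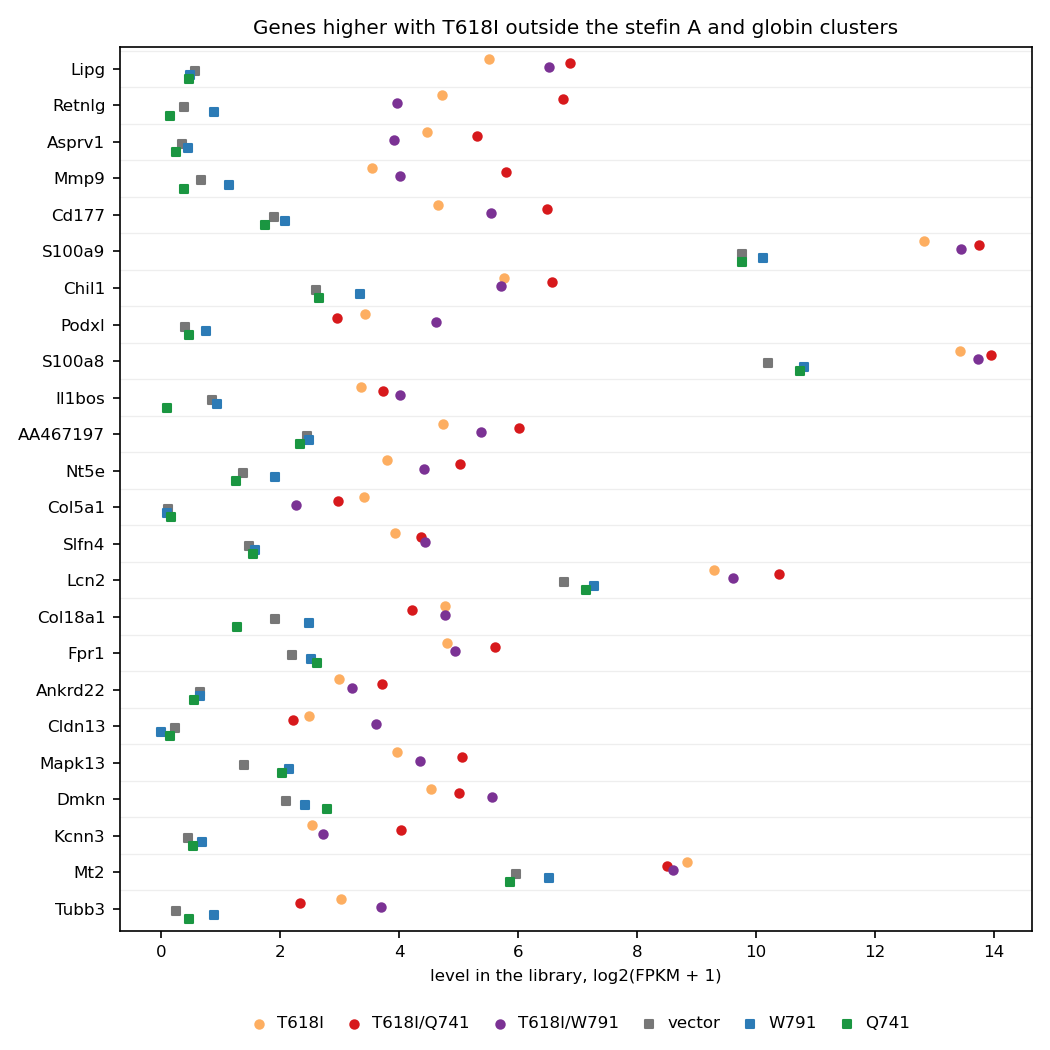
Level in each library (horizontal axis, log2(FPKM + 1)) of the 24 annotated genes with the largest rise outside the stefin A and globin genes; circles are libraries with T618I, squares those without. Every circle of a gene lies to the right of every square, a gap that the choice of called genes favours. T618I/Q741 is the highest for Retnlg, Mmp9, Cd177 and Kcnn3 among others.

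Surface, adhesion and matrix genes formed the largest group that rose, with 19 genes and a median log2 difference of 2.34, and 15 of them were 2-fold or more higher in every pair. Not one of the 19 passed with each library left out. Podxl, the sialomucin podocalyxin, was at 9.72, 6.73 and 23.5 FPKM in the T618I, T618I/Q741 and T618I/W791 libraries, against 0.320, 0.689 and 0.379 FPKM in the vector, W791 and Q741 libraries (3.12 ± 0.41, adjusted p = 0.0306). Nt5e, the ecto-nucleotidase CD73 that makes adenosine, was at 12.8, 31.5 and 20.3 FPKM in the T618I, T618I/Q741 and T618I/W791 libraries, against 1.59, 2.78 and 1.38 FPKM in the vector, W791 and Q741 libraries (2.89 ± 0.33, adjusted p = 0.0211). Podxl was thus highest beside the W791 tail and Nt5e beside the Q741 tail.

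Among the called genes were Col5a1 and Col18a1. Col5a1, a chain of a fibrillar collagen, was at 9.67, 6.84 and 3.83 FPKM in the T618I, T618I/Q741 and T618I/W791 libraries, against 0.0745, 0.0624 and 0.115 FPKM in the vector, W791 and Q741 libraries (2.77 ± 0.28, adjusted p = 0.0130). Col18a1, whose product is the source of endostatin, was at 26.3, 17.5 and 26.4 FPKM in the T618I, T618I/Q741 and T618I/W791 libraries, against 2.76, 4.59 and 1.41 FPKM in the vector, W791 and Q741 libraries (2.70 ± 0.32, adjusted p = 0.0234). Olfml2b, an olfactomedin-like matrix protein, averaged 14.4 ± 3.64 FPKM with T618I and 2.26 ± 0.652 FPKM without (adjusted p = 0.0132). Of the 6 endothelial and stromal markers, Cdh5, Col1a1, Cxcl12 and Lepr were under 1 FPKM in every library, and their sum ran from 32.4 to 38.0 FPKM with T618I and from 28.6 to 39.6 FPKM without, nearly all of it Pecam1.

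Receptors and other membrane proteins of myeloid cells completed this group. Fpr1, the receptor for formylated bacterial peptides, was at 27.0, 48.0 and 29.6 FPKM in the T618I, T618I/Q741 and T618I/W791 libraries, against 3.58, 4.73 and 5.11 FPKM in the vector, W791 and Q741 libraries (2.68 ± 0.24, adjusted p = 0.00749). Mcemp1 (1810033B17Rik in the table), a small membrane protein of mast cells and neutrophils, averaged 82.8 ± 26.8 FPKM with T618I and 16.8 ± 3.17 FPKM without (adjusted p = 0.0219). Cd177, a neutrophil surface glycoprotein, averaged 52.9 ± 33.1 FPKM with T618I and 2.75 ± 0.437 FPKM without (adjusted p = 0.0223). Prom1, the stem cell surface protein prominin (CD133), averaged 9.65 ± 2.05 FPKM with T618I and 2.09 ± 0.609 FPKM without (adjusted p = 0.0198). The heat-stable antigen gene Cd24a averaged 202 ± 39.9 FPKM with T618I and 84.6 ± 11 FPKM without (adjusted p = 0.0462). Cd55, which protects cells from complement, averaged 14.5 ± 1.12 FPKM with T618I and 7.54 ± 1.13 FPKM without (adjusted p = 0.0466).

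The remaining members span several roles. The potassium channel gene Kcnn3, the neuropilin-like receptor gene Dcbld2 and the maltase-glucoamylase gene Mgam rose by 2.54, 2.46 and 2.34 on the log2 scale. Cldn13, a claudin of erythroid cells, rose by 2.65 and was listed at 0 with W791. Actn1, an actin crosslinker, rose by 1.09, Reck, a membrane-anchored inhibitor of matrix metalloproteinases, by 0.94, the liprin gene Ppfibp1 by 0.88 and Tmem2, a cell-surface hyaluronidase, by 0.72.

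Lipid and metabolic enzymes contributed 8 higher genes. Lipg, endothelial lipase, was at 44.4, 116 and 90.6 FPKM in the T618I, T618I/Q741 and T618I/W791 libraries, against 0.482, 0.400 and 0.375 FPKM in the vector, W791 and Q741 libraries (5.79 ± 0.33, adjusted p = 0.00106). Both enzymes of the last step of triglyceride synthesis rose. Dgat2 was at 41.8, 36.7 and 46.7 FPKM in the T618I, T618I/Q741 and T618I/W791 libraries, against 6.48, 9.37 and 9.33 FPKM in the vector, W791 and Q741 libraries (2.20 ± 0.17, adjusted p = 0.00390). Dgat1 was at 37.7, 57.0 and 39.2 FPKM in the T618I, T618I/Q741 and T618I/W791 libraries, against 18.8, 20.3 and 19.9 FPKM in the vector, W791 and Q741 libraries (1.12 ± 0.17, adjusted p = 0.0498), just inside the threshold.

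Other members of this group were Sgms2, a sphingomyelin synthase at the plasma membrane (20.9 ± 4.06 FPKM with T618I and 7.73 ± 1.19 FPKM without), and Rdh12, a retinal reductase (6.36 ± 0.497 FPKM with T618I and 2.36 ± 0.218 FPKM without). Abca13, a very large ABC transporter, averaged 7.44 ± 1.87 FPKM with T618I and 1.36 ± 0.107 FPKM without, Elovl7, a fatty acid elongase, 3.45 ± 0.331 FPKM with T618I and 1.24 ± 0.226 FPKM without, and Fah, the last enzyme of tyrosine breakdown, 2.63 ± 0.166 FPKM with T618I and 0.659 ± 0.241 FPKM without. Of the wider list of 37 tested lipid genes 3 rose, 0 fell and 20 were above 0 (median 0.02). Mgll, Cd36 and Pparg had the largest differences of those that did not pass, at 1.40 ± 0.43, -0.99 ± 0.27 and 0.73 ± 0.48.

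Of the called genes 4 bind or transport metals, a grouping made after the calls, and Mt2 and Mt1 are neighbours on chromosome 8. Mt2 was at 458, 361 and 387 FPKM in the T618I, T618I/Q741 and T618I/W791 libraries, against 61.4, 90.8 and 57.2 FPKM in the vector, W791 and Q741 libraries (2.53 ± 0.20, adjusted p = 0.00411). Mt1 was at 689, 671 and 637 FPKM in the T618I, T618I/Q741 and T618I/W791 libraries, against 288, 392 and 293 FPKM in the vector, W791 and Q741 libraries (1.05 ± 0.15, adjusted p = 0.0367). Mt1 was the more abundant and Mt2 changed more. Fbxl5, the iron-sensing subunit of a ubiquitin ligase that controls iron-regulatory proteins, averaged 57.7 ± 9.47 FPKM with T618I and 26.1 ± 3.20 FPKM without (adjusted p = 0.0381). Mcu, the pore of the mitochondrial calcium uniporter, averaged 15.8 ± 0.888 FPKM with T618I and 9.36 ± 0.628 FPKM without (adjusted p = 0.0449).

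Regulators and signalling genes gave 13 higher genes, with differences of 0.67 to 2.72. Mxd1, a MAX partner that opposes MYC, was at 61.4, 74.5 and 63.1 FPKM in the T618I, T618I/Q741 and T618I/W791 libraries, against 20.4, 25.1 and 22.0 FPKM in the vector, W791 and Q741 libraries (1.52 ± 0.13, adjusted p = 0.00645). Cebpe, the transcription factor of late granulocyte maturation, was at 18.2, 31.0 and 24 FPKM in the T618I, T618I/Q741 and T618I/W791 libraries, against 6.42, 8.34 and 7.86 FPKM in the vector, W791 and Q741 libraries (1.55 ± 0.20, adjusted p = 0.0310). The groups did not overlap for either gene, as for all 97 called genes. Some called genes are neighbours: Mxd1 lies 17334 bases from Asprv1 on chromosome 6, and Retn 5944 bases from Mcemp1 on chromosome 8, and all of these rose.

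Signalling genes followed. Mapk13, a stress-activated MAP kinase, was at 14.5, 32.4 and 19.4 FPKM in the T618I, T618I/Q741 and T618I/W791 libraries, against 1.60, 3.45 and 3.07 FPKM in the vector, W791 and Q741 libraries (2.60 ± 0.33, adjusted p = 0.0263). Slfn4, a myeloid Schlafen gene, averaged 18.1 ± 3.45 FPKM with T618I and 1.88 ± 0.101 FPKM without (adjusted p = 0.00106). Casp4, an inflammatory caspase that senses lipopolysaccharide in the cytosol, averaged 26.3 ± 0.851 FPKM with T618I and 16.1 ± 1.14 FPKM without (adjusted p = 0.0466), the smallest rise that passed. The small GTPase gene Rnd1, the ARF exchange factor gene Iqsec1 and the trafficking gene Unc119 rose by 1.22, 0.89 and 0.86.

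Some regulators that rose are known from other tissues and were low here. Lin28a averaged 2.65 ± 0.474 FPKM with T618I and 0.364 ± 0.163 FPKM without (adjusted p = 0.0196). Tubb3, the neuronal beta tubulin, averaged 7.69 ± 3.98 FPKM with T618I and 0.473 ± 0.342 FPKM without (adjusted p = 0.0398), and the germ cell kinase gene Mak 3.43 ± 1.29 FPKM with T618I and 0.486 ± 0.205 FPKM without (adjusted p = 0.0458). Lin28a, Tubb3 and Mak were under 1 FPKM in each library without T618I, as were 21 of the 75 higher genes in all.

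The 6 genes left among those that rose were Ankrd22, Sapcd1, AA467197, Mettl9, Klhdc4 and Il1bos. Ankrd22, an ankyrin repeat protein, averaged 9.06 ± 2.66 FPKM with T618I and 0.539 ± 0.0609 FPKM without (adjusted p = 0.00286). AA467197 averaged 43.3 ± 19.3 FPKM with T618I and 4.37 ± 0.278 FPKM without (adjusted p = 0.0133). Il1bos (chr2:129369902-129375733) lies antisense to Il1b (chr2:129364569-129371164) and overlaps it in part. The libraries were stranded, but no source used here says whether strand was used in quantification. How reads from the overlap were divided between the 2 genes is therefore not known. Il1bos averaged 12.2 ± 2.95 FPKM with T618I and 0.599 ± 0.460 FPKM without, while Il1b was at 76.1, 68.0 and 18.8 FPKM in the T618I, T618I/Q741 and T618I/W791 libraries, against 49.4, 70.3 and 66.0 FPKM in the vector, W791 and Q741 libraries (adjusted p = 0.800).

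Globin genes, which mark red cell precursors, were among the largest rises. Hbb-bt, an adult beta globin, was at 59.9, 124 and 396 FPKM in the T618I, T618I/Q741 and T618I/W791 libraries, against 1.23, 1.27 and 1.02 FPKM in the vector, W791 and Q741 libraries (6.06 ± 0.62, adjusted p = 0.0133). Hba-a2, an alpha globin, was at 25.8, 24.5 and 116 FPKM in the T618I, T618I/Q741 and T618I/W791 libraries, against 0.654, 0.229 and 0.109 FPKM in the vector, W791 and Q741 libraries (5.04 ± 0.59, adjusted p = 0.0219). T618I/W791 was highest for both. Globin copies share reads, so the single values are uncertain, as is whether Hbb-b1 rose apart from the other beta globins. Hbb-b1 was at 53.1, 34.3 and 441 FPKM in the T618I, T618I/Q741 and T618I/W791 libraries, against 0.262, 0.0480 and 0.448 FPKM in the vector, W791 and Q741 libraries (6.25 ± 0.89, adjusted p = 0.0385). Of 7 globin genes tested 3 rose and the median was 3.80. Hbb-bs and the embryonic Hbb-y and Hbb-bh1 had differences of 3.80 ± 0.66, 1.09 ± 0.62 and 0.57 ± 0.41 that did not pass.

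Of the other erythroid genes, 28 of 29 tested members of the list of regulators and surface genes had a difference above 0, with a median of 1.28, against 3823 of 11188 (34.2%) and a median of -0.08 over all genes. Cldn13 alone of them rose. Car2, a carbonic anhydrase of red cells, was at 43.3, 25.8 and 176 FPKM in the T618I, T618I/Q741 and T618I/W791 libraries, against 8.32, 9.71 and 7.30 FPKM in the vector, W791 and Q741 libraries (adjusted p = 0.124). Cpox, an enzyme of heme synthesis, was at 35.9, 35.1 and 121 FPKM in the T618I, T618I/Q741 and T618I/W791 libraries, against 8.32, 9.41 and 8.98 FPKM in the vector, W791 and Q741 libraries (adjusted p = 0.0764). For both, all libraries with T618I lay above all without, and T618I/W791 was by far the highest. Car1 and Rhag had differences of 2.65 ± 0.62 and 2.58 ± 0.61 that did not pass. The 8 erythroid markers summed to 109, 162 and 575 FPKM in the T618I, T618I/Q741 and T618I/W791 libraries, against 4.99, 6.07 and 3.69 FPKM in the vector, W791 and Q741 libraries.

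The 22 genes that fell were led by Snord15b and Igfbp7. Snord15b, a small nucleolar RNA that polyA libraries capture poorly, was listed at 0 in all T618I libraries, against 7.78, 5.90 and 5.23 FPKM in the vector, W791 and Q741 libraries (adjusted p = 0.000977). Igfbp7 (chr5:77349240-77408045), a secreted binder of insulin-like growth factors, was at 0.775, 1.03 and 0.874 FPKM in the T618I, T618I/Q741 and T618I/W791 libraries, against 7.24, 8.79 and 8.32 FPKM in the vector, W791 and Q741 libraries (-2.27 ± 0.12, adjusted p = 0.000963). The libraries within each group were close together. Only these 2 of the lower genes passed with each library left out.

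Cytokines and receptors made up most of the rest of one group of 9. Il4, a cytokine of basophils and mast cells, was at 1.33, 0.978 and 0.946 FPKM in the T618I, T618I/Q741 and T618I/W791 libraries, against 4.63, 3.64 and 3.73 FPKM in the vector, W791 and Q741 libraries (-1.26 ± 0.14, adjusted p = 0.0186). Hgf, hepatocyte growth factor, was at 12.5, 11.5 and 8.37 FPKM in the T618I, T618I/Q741 and T618I/W791 libraries, against 25.1, 23.5 and 23.5 FPKM in the vector, W791 and Q741 libraries (-1.10 ± 0.16, adjusted p = 0.0381). Emr4, an adhesion receptor of mouse macrophages, was at 1.15, 0.190 and 0.566 FPKM in the T618I, T618I/Q741 and T618I/W791 libraries, against 6.53, 4.48 and 7.07 FPKM in the vector, W791 and Q741 libraries (-2.12 ± 0.26, adjusted p = 0.0236). The groups did not overlap, as for all called genes, and Emr4 varied most among the T618I libraries.

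Several of the other lower genes stood at low levels. Il12rb2, a chain of the IL-12 receptor, averaged 1.39 ± 0.127 FPKM with T618I and 3.57 ± 0.313 FPKM without (adjusted p = 0.0259). Mrgpra6, a member of the Mas-related receptor family that RefSeq lists as a transcribed pseudogene, was at 1.32, 0.620 and 0.952 FPKM in the T618I, T618I/Q741 and T618I/W791 libraries, against 3.56, 4.28 and 4.17 FPKM in the vector, W791 and Q741 libraries (adjusted p = 0.0236). The chemokine receptor gene Ccr6 averaged 0.267 ± 0.133 FPKM with T618I and 1.44 ± 0.144 FPKM without (adjusted p = 0.0458). Vcam1, the adhesion ligand of integrin VLA-4, was at 0.595, 0.675 and 0.658 FPKM in the T618I, T618I/Q741 and T618I/W791 libraries, against 2.70, 2.11 and 2.31 FPKM in the vector, W791 and Q741 libraries (adjusted p = 0.0236). Prg3, an eosinophil granule protein, was at 1.38, 1.52 and 1.65 FPKM in the T618I, T618I/Q741 and T618I/W791 libraries, against 5.54, 3.56 and 4.07 FPKM in the vector, W791 and Q741 libraries (adjusted p = 0.0449). The call of Ccr6 and of Prg3 was lost with each library left out.

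Intracellular proteins that fell included Bcl2 (chr1:106538176-106714290), the founding inhibitor of mitochondrial apoptosis. Bcl2 was at 3.84, 2.55 and 3.08 FPKM in the T618I, T618I/Q741 and T618I/W791 libraries, against 10.7, 8.11 and 7.68 FPKM in the vector, W791 and Q741 libraries (-1.24 ± 0.17, adjusted p = 0.0367). It was the sole member called of 22 tested in the list of BCL2 family and apoptosis genes, whose median was -0.05. Of the members that did not pass, Bcl2a1d, Pmaip1 and Bcl2l1, which encodes BCL-XL, had the largest differences, at -0.65 ± 0.19, -0.56 ± 0.16 and 0.46 ± 0.14. Pdcd4 averaged 18.4 ± 0.190 FPKM with T618I and 29.5 ± 0.450 FPKM without (adjusted p = 0.0367), with the tightest groups of the genes that fell relative to their level. Dock10, an exchange factor of small GTPases, averaged 22.2 ± 3.99 FPKM with T618I and 45.5 ± 2.48 FPKM without (adjusted p = 0.0385). The small GTPase gene Gem was at 0.827, 0.847 and 1.04 FPKM in the T618I, T618I/Q741 and T618I/W791 libraries, against 2.72, 2.68 and 4.01 FPKM in the vector, W791 and Q741 libraries (adjusted p = 0.0406). The interferon-induced GTPase gene Gbp3 and the myosin gene Myo18b fell by 1.01 and 0.97 on the log2 scale.

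Enzymes and binding proteins of glycans and lipids made up 4 lower genes. Fut7, the fucosyltransferase that builds selectin ligands on leukocytes, was at 9.93, 8.09 and 9.09 FPKM in the T618I, T618I/Q741 and T618I/W791 libraries, against 20.7, 19.0 and 18.3 FPKM in the vector, W791 and Q741 libraries (-1.02 ± 0.11, adjusted p = 0.0188). B3gnt5, which starts the lacto-series glycolipids, was at 2.53, 2.13 and 1.85 FPKM in the T618I, T618I/Q741 and T618I/W791 libraries, against 7.11, 5.87 and 6.66 FPKM in the vector, W791 and Q741 libraries (-1.25 ± 0.13, adjusted p = 0.0133). The oxysterol-binding protein gene Osbpl3 was at 4.51, 3.94 and 3.78 FPKM in the T618I, T618I/Q741 and T618I/W791 libraries, against 12.8, 10.4 and 11.3 FPKM in the vector, W791 and Q741 libraries (adjusted p = 0.00842). Faah, which breaks down anandamide, was at 0.898, 0.502 and 0.910 FPKM in the T618I, T618I/Q741 and T618I/W791 libraries, against 3.83, 2.94 and 3.05 FPKM in the vector, W791 and Q741 libraries (adjusted p = 0.0240). B3gnt5 and Osbpl3 were the more even of these across the pairs. Tmem150b, a membrane protein, was at 2.97, 1.39 and 2.73 FPKM in the T618I, T618I/Q741 and T618I/W791 libraries, against 7.11, 7.51 and 7.46 FPKM in the vector, W791 and Q741 libraries, and the clone E330020D12Rik fell by 1.25.

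**Figure D4:**
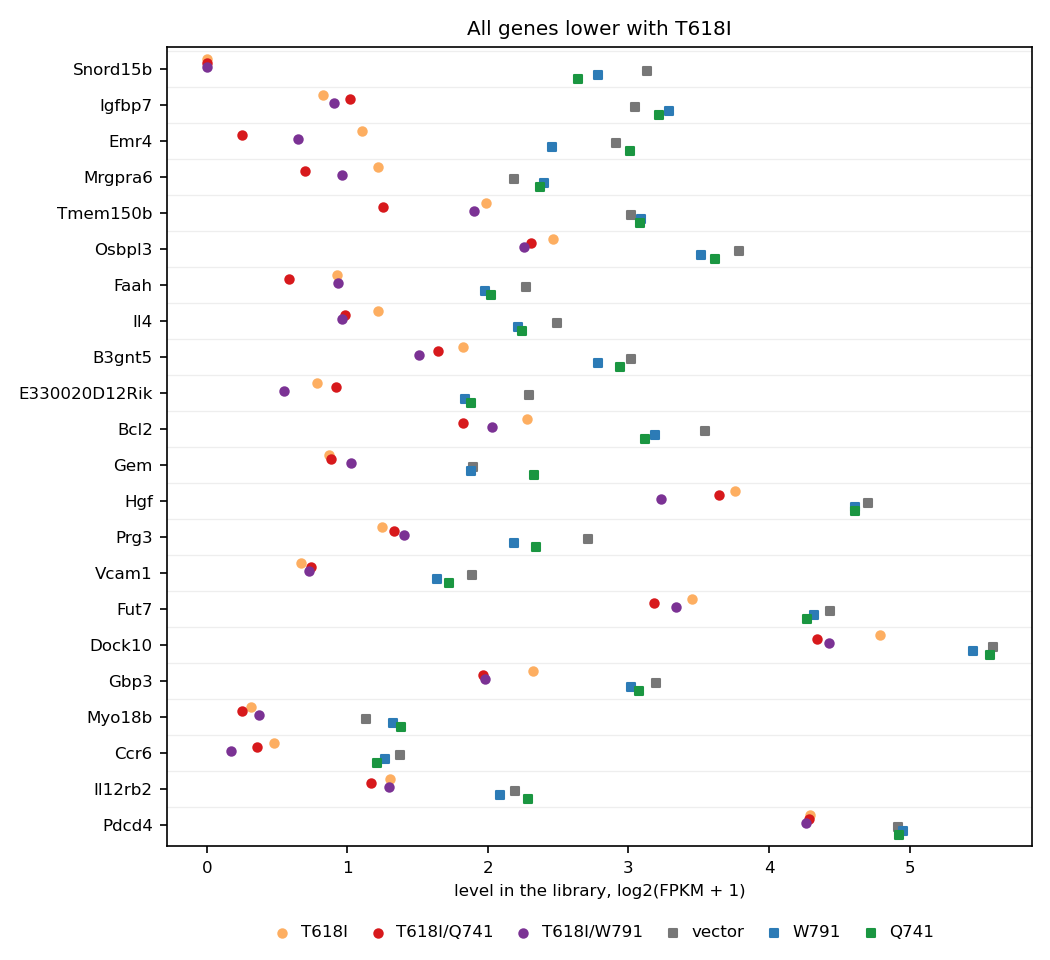
Level in each library (horizontal axis, log2(FPKM + 1)) of all 22 genes that fell with T618I; circles are libraries with T618I, squares those without. All circles of a gene lie left of its squares, a gap that the choice of called genes favours. Apart from Pdcd4, Dock10, Hgf and Fut7 the genes stand below 5 FPKM in every T618I library.

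Some genes moved by 2-fold or more in all 3 pairs without passing the test, 61 upward and 29 downward. Mcpt1, a mast cell protease, was at 444, 65.4 and 12.3 FPKM in the T618I, T618I/Q741 and T618I/W791 libraries, against 0.147, 0.499 and 0.354 FPKM in the vector, W791 and Q741 libraries (adjusted p = 0.0831). Nos2, inducible nitric oxide synthase, was at 22.3, 36.0 and 5.34 FPKM in the T618I, T618I/Q741 and T618I/W791 libraries, against 0.0807, 0.493 and 0.281 FPKM in the vector, W791 and Q741 libraries (adjusted p = 0.0547). The glutathione transferase gene Gstt1, the serotonin synthesis gene Tph1, the erythroid factor gene Klf1 and the predicted gene Gm15915 had differences of 2.63 ± 0.44, 2.66 ± 0.46, 2.30 ± 0.42 and 3.34 ± 0.65, with Hbb-bs, Cpox, Car1 and Car2 given above. Downward, the basophil protease gene Prss34 was at 78.7, 12.6 and 31.1 FPKM in the T618I, T618I/Q741 and T618I/W791 libraries, against 393, 371 and 363 FPKM in the vector, W791 and Q741 libraries (adjusted p = 0.0595). The cyclin gene Ccnd1 was at 9.43, 5.53 and 3.54 FPKM in the T618I, T618I/Q741 and T618I/W791 libraries, against 39.1, 17.8 and 17.3 FPKM in the vector, W791 and Q741 libraries (adjusted p = 0.108). Ly6d and Siglech, both listed at 0 in the T618I/W791 library, had differences of -2.38 ± 0.47 and -1.83 ± 0.51. Bex6, Fam26f, Ctnnd2, Serpinf1, Cox6a2 and Atp1b1 lay between -2.41 ± 0.64 and -1.30 ± 0.21.

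The genes nearest the threshold were picked by their adjusted p. Just outside it lay Hsd11b1 (1.43 ± 0.22), Ifi203 (-1.45 ± 0.22), Tfr2 (0.92 ± 0.14), Pram1 (1.36 ± 0.21) and Irs2 (1.01 ± 0.16), each at adjusted p = 0.0504. Just inside lay Dgat1, Mmp9, Unc119, Tmem150b and Tmem2, at adjusted p of 0.0466 to 0.0498, with differences of 1.12 ± 0.17, 3.72 ± 0.57, 0.86 ± 0.13, -1.35 ± 0.20 and 0.72 ± 0.11. Size and error varied widely among them, while the narrow range of adjusted p follows from how they were picked. The cut outside the threshold falls among near ties, such as Siglece given below.

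The lists of lineage genes give the wider picture. Over all genes tested 0.867% were called, so 0 calls in a list of this size, here and below, says little. Specific and gelatinase granule genes had 7 of 28 tested members that rose, 0 that fell and 26 above 0, with a median of 1.32. The 7 were Retnlg, Mmp9, Chil1, Lcn2, Wfdc21, Cd177 and AA467197. Cd177 and AA467197 were placed outside the granule group above, so their place in this list is loose. Itgb2l, Pglyrp1 and Ceacam10 had the largest differences of those that did not pass, at 2.20 ± 0.39, 2.12 ± 0.41 and 2.66 ± 0.78. By pair the list's median was 1.13 for T618I, 2.17 for T618I/Q741 and 1.11 for T618I/W791. Primary granule genes, made earlier in maturation, had 0 of 17 called, beside 0.867% of all genes, and a median of 0.18; the difference between the lists was not tested. The largest differences in the primary list were those of Prss57, Ms4a3 and Gstm1, at 0.62 ± 0.17, 0.55 ± 0.32 and 0.45 ± 0.20. Neutrophil surface and signalling receptors had 2 of 38 that rose (Fpr1 and Mcemp1) and a median of 0.39, with pair medians of 0.56, 0.61 and -0.03. Here Siglece (1.48 ± 0.23, adjusted p = 0.0504), Cxcr2 (2.25 ± 0.41) and the decoy receptor gene Il1r2 (1.92 ± 0.32) were the largest that did not pass. Among granulocytic transcription factors 1 of 22 rose (Cebpe), the median was 0.09, and Irf8, Gata2 and Gfi1 had differences of -1.26 ± 0.33, -0.97 ± 0.31 and 0.70 ± 0.15 that did not pass.

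Lineages other than the neutrophil divided. Megakaryocyte and platelet genes had 0 of 25 called although all 25 were above 0, with a median of 0.89 and pair medians of 1.35, 1.26 and 0.21. Pf4 was their largest, at 1725, 904 and 943 FPKM in the T618I, T618I/Q741 and T618I/W791 libraries, against 409, 549 and 202 FPKM in the vector, W791 and Q741 libraries (adjusted p = 0.129). Slamf1 and Ppbp were next, at 1.51 ± 0.36 and 1.46 ± 0.48. The 6 megakaryocyte markers summed to 2105, 1094 and 1101 FPKM in the T618I, T618I/Q741 and T618I/W791 libraries, against 546, 708 and 269 FPKM in the vector, W791 and Q741 libraries. Heme synthesis genes had 0 of 13 called and a median of 0.25, with Alas2 and Alas1 at 1.21 ± 0.40 and 0.75 ± 0.17 beside Cpox. Mast cell and basophil genes had 1 of 28 that fell (Il4) and a median of -0.56, with members of both signs, Mcpt1 at 5.79 ± 1.15, Mcpt2 at 3.25 ± 0.79 and Prss34 at -3.53 ± 0.58. The 6 mast cell and basophil markers summed to 2104, 577 and 525 FPKM in the T618I, T618I/Q741 and T618I/W791 libraries, against 1851, 1836 and 1729 FPKM in the vector, W791 and Q741 libraries. Eosinophil genes had Prg3 lower and Cd24a, which is also a neutrophil and erythroid gene, higher, among 9 tested with a median of -0.13. Alox15, Epx and Prg2 were at -1.47 ± 0.38, -0.99 ± 0.34 and -0.86 ± 0.17 without passing. Of the 5 eosinophil markers Il5ra and Ccr3 were under 1 FPKM in every library.

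Monocyte, dendritic and interferon lists had medians below that of all genes. Monocyte and macrophage genes had 2 of 33 that fell (Emr4 and Vcam1) and 3 above 0, with a median of -0.54 and pair medians of -0.48, -0.13 and -1.24. Cx3cr1, Clec10a and Irf8 were the largest that did not pass, at -1.67 ± 0.47, -1.38 ± 0.60 and -1.26 ± 0.33. The 6 markers of these cells summed to 856, 806 and 399 FPKM in the T618I, T618I/Q741 and T618I/W791 libraries, against 1027, 991 and 1068 FPKM in the vector, W791 and Q741 libraries. Dendritic and MHC class II genes had 0 of 21 called and 1 above 0, with a median of -1.05 and pair medians of -0.85, -0.06 and -1.55. The Q741 pair thus lay near the median of all genes in that pair, -0.16. Ly6d, Flt3 and Siglech had the largest differences, of which that of Flt3 was -1.88 ± 0.58. The 5 dendritic markers summed to 862, 851 and 244 FPKM in the T618I, T618I/Q741 and T618I/W791 libraries, against 1439, 1210 and 1042 FPKM in the vector, W791 and Q741 libraries. Interferon response genes had 1 of 39 that fell (Gbp3), a median of -0.52 and pair medians of -0.88, 0.03 and -0.66. The largest that did not pass were Ifit3, Ifi203 and Cxcl10, at -1.61 ± 0.40, -1.45 ± 0.22 and -1.25 ± 0.28. Of the B, T and NK lymphoid list 4 of 26 members in the table were expressed enough to be tested and 0 were called, with a median of -0.57. Cd79b, Blnk and Il7r were at -1.22 ± 0.40, -0.82 ± 0.30 and -0.32 ± 0.61.

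**Figure D5:**
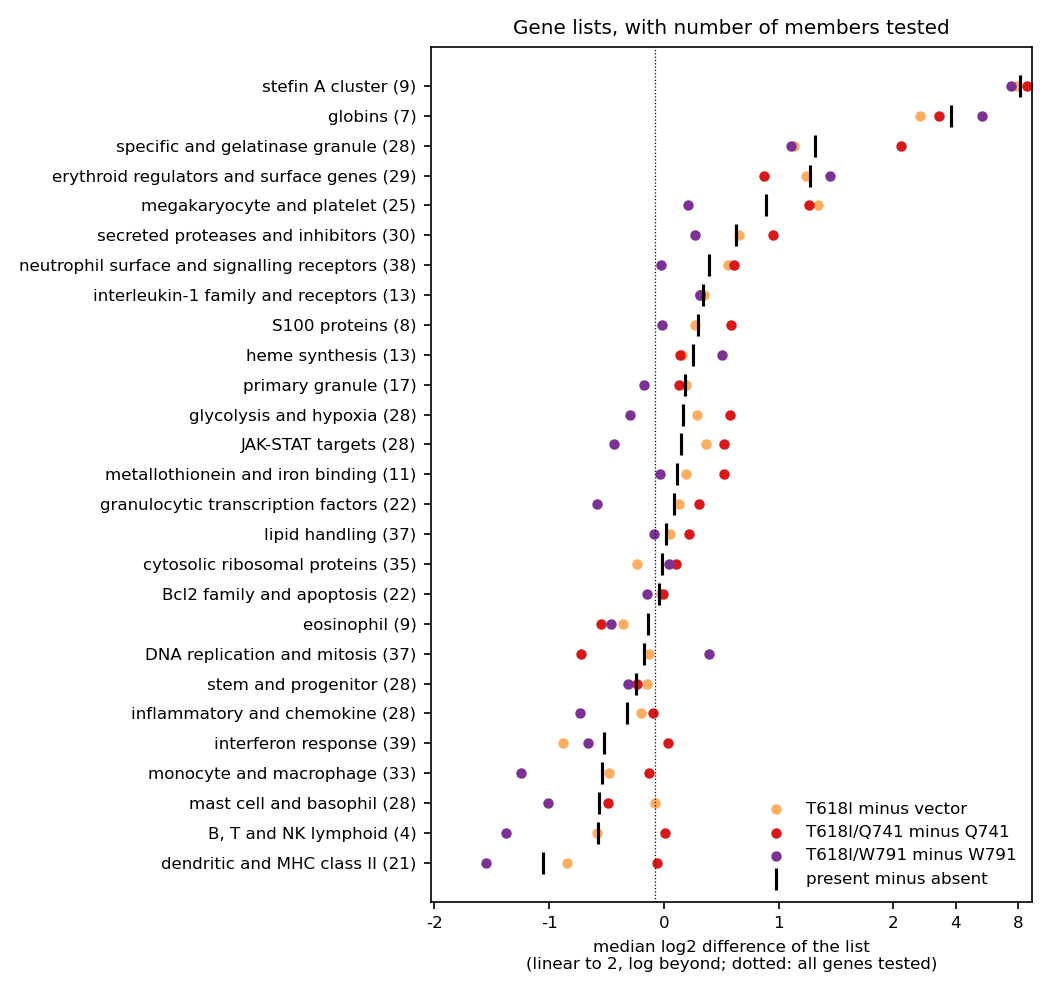
Median log2 difference of each gene list for present minus absent (black tick) and for the 3 pairs (points), with the number of members tested and the median of all genes as a dotted line; the axis is linear up to 2 and logarithmic beyond. The stefin A and globin lists stand far to the right, and for the granulocytic transcription factor, JAK-STAT, glycolysis and DNA replication lists among others the pairs fall on both sides of 0.

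Signalling and growth lists held few calls, as lists of this size would at the 0.867% called over all genes. JAK-STAT targets had 0 of 28 that rose and 1 that fell (Hgf), with pair medians of 0.37, 0.53 and -0.44. The median over all constructs was 0.15. Ccnd1, Gadd45g and Pim2 had the largest differences that did not pass, at -1.83 ± 0.41, 1.77 ± 0.28 and 1.03 ± 0.29. DNA replication and mitosis genes had 0 of 37 called, with a median of -0.18 and pair medians of -0.13, -0.72 and 0.40. The pair medians thus had opposite signs with the Q741 and W791 tails, a difference that was not tested. Gins1, Mcm7 and Mcm3 were at -0.42 ± 0.28, -0.36 ± 0.24 and -0.34 ± 0.29. Stem and progenitor genes had 2 of 28 that rose, Prom1 among them, beside a median of -0.25 and Flt3, Slamf1 and Satb1 at -1.88 ± 0.58, 1.51 ± 0.36 and -1.44 ± 0.38, which did not pass.

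Of the list of the interleukin-1 family and its receptors 2 of 13 rose, Il1f9 and Il1bos, with a median of 0.34. Il1bos is a noncoding RNA antisense to Il1b and not itself a family member. Il1r2, Il18r1 and Il18 were at 1.92 ± 0.32, -1.08 ± 0.32 and -0.99 ± 0.32 without passing. Inflammatory and chemokine genes had 0 of 28 called, beside 0.867% of all genes, 4 above 0 and a median of -0.32. Cxcl10, Cd40 and Cd83 were at -1.25 ± 0.28, -1.14 ± 0.27 and -1.03 ± 0.40. Secreted proteases and inhibitors had 4 of 30 that rose, Asprv1, Mmp9, Wfdc21 and Serpinb2, with a median of 0.63. Timp3 and Serpinb10 had differences of 2.03 ± 0.42 and 1.65 ± 0.38 that did not pass. Glycolysis and hypoxia genes had 0 of 28 called with a median of 0.17, with Slc2a3, Egln3 and Hk1 at 1.46 ± 0.35, 0.64 ± 0.50 and 0.62 ± 0.12. Cytosolic ribosomal protein genes had 0 of 35 called with a median of -0.02, with Rps27, Rps2 and Rps4x at 0.62 ± 0.16, 0.16 ± 0.19 and -0.14 ± 0.13. Of the S100 list 2 of 8 tested rose, S100a8 and S100a9, and of the metallothionein and iron-binding list 2 of 11, Mt1 and Mt2, with medians of 0.30 and 0.12. Slc40a1, Hmox1 and Slc39a10 were at 0.81 ± 0.13, 0.55 ± 0.29 and -0.47 ± 0.19. S100a4, S100a6 and S100a11 had differences of -1.02 ± 0.18, 1.10 ± 0.30 and 0.52 ± 0.21 that did not pass.

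The endogenous receptor gene Csf3r was at 69.4, 95.9 and 38.8 FPKM in the T618I, T618I/Q741 and T618I/W791 libraries, against 53.1, 52.8 and 56.7 FPKM in the vector, W791 and Q741 libraries (0.23 ± 0.31, adjusted p = 0.810). The T618I libraries lay on both sides of the others, and the sign rested on T618I/Q741, without which the difference was -0.06. The labels do not say whether reads of the introduced receptor entered this value, so the gene is no check of them.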

How the data were processed

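The deposited table pairs each gene symbol with 1 value per library. No unit is named in it. The values were taken to be FPKM computed by the authors, because Cufflinks, named with TopHat and the build mm10 in the submitters' processing notes, writes that unit. Libraries were TruSeq stranded mRNA, per the labels' protocols. Tool versions, annotation and use of strand are not given in those notes or labels. Of 23444 rows, 27 whose symbol had become a date were left out. The letters in 2 abbreviated column names tie them to the titles of the constructs with both changes.

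FPKM as deposited were taken to log2(FPKM + 1) with no further scaling. Limma 3.58.1 in R 4.3.3 compared 3 against 3 libraries with a trend in the prior variance and 4 residual degrees of freedom, after a check on simulated data. Tests are two-sided, and a value after ± beside a log2 difference is limma's standard error. An exact permutation test of 3 against 3 cannot go below 0.1. P-values measure the spread between constructs, which may be partly technical. Counts of reads were not used here, so no counting intervals are given.

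Some genes that the rule names are not reported here. The genes named are those called, with all libraries for the 15 largest differences in each direction, up to 3 members of each list with the largest difference that did not pass, the 5 most and 5 least even genes across the pairs, 10 genes in each direction that moved in all pairs without passing, and the 5 nearest the threshold on each side. The members and gene lists were chosen with earlier results of these data known, and roles were given to called genes after the calls were known. Older symbols were matched through RefSeq (GRCm38.p6), which placed 95 of the 97 called genes. Alternatives were other pseudocounts, filters and scalings, no trend, the tail as a block, and each library left out.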

Additional observations from a re-analysis of the deposited data

How the results depend on the processing

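Each of the 97 called genes kept its direction under every alternative in which it was tested. Their selection favours this, since the groups did not overlap for any of the 97. With each library left out in turn, the counts ranged from 20 to 121 genes higher and from 2 to 63 lower, and genes whose groups did not overlap from 1025 to 1626 higher and from 2330 to 4089 lower. Without the filter on low values 41 genes were higher, and 1355 were higher with no overlap. With the filter at 5 FPKM 11 genes were lower. With a pseudocount of 0.1, 191 genes were 2-fold higher and 81 were 2-fold lower in all 3 pairs, and with 0.5, 60 were lower. Median-ratio scaling gave 25 such lower genes, and 1318 lower with no overlap. With the tail as a block 83 genes were higher and 36 lower, and 66 of the 97 passed. The deviations of libraries with the same tail correlated at 0.164, 0.0251 and 0.03 for the full, Q741 and W791 tails. Vector, which carries no receptor, stood in for the full tail without T618I. Whether the tail pairs the libraries was not tested. Pair counts could not be given with a library left out, since a pair is then missing. The difference of Csf3r ranged from -0.0592, without T618I/Q741, to 0.582, without T618I/W791. The cause of these changes was not tested. Depth limits the precision of genes at low FPKM, least in vector.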
